A study of Mus musculus with 2 samples.

Results

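The mitochondrial solute carriers of the Slc25 family were followed in nucleoplasmic RNA, from the soluble contents of the nucleus, of mouse macrophages. Members were chosen by name: every gene whose symbol is Slc25a and a number and that has an annotated protein-coding transcript. This gave 47 genes of 55450 annotated gene entries. Another matching symbol, Slc25a5-ps, has no protein-coding transcript, was left out and had no counts. This rule used no measured value, but it was set with earlier results of these data known.

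The cells were bone-marrow-derived macrophages of the C57BL/6J strain, primary cells, that had received Lipid A, the membrane anchor of bacterial lipopolysaccharide, at 100 ng/ml for 60 min. Total RNA was sequenced after ribosomal RNA was removed. The samples form 1 group with 2 biological replicates, started from 1 µg of RNA in replicate 1 and 500 ng in replicate 2, and both carry the same donor label. Age and sex of the animals are not given in the labels, and unstimulated cells, other times and the cytoplasm were not analysed here. The values are therefore levels after stimulation, with no test between conditions, and no gene is described as induced. Fewer cells with a transcript and less RNA per cell cannot be told apart in such bulk samples.

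Carriers of this family sit in the inner mitochondrial membrane, with few exceptions, and exchange metabolites, nucleotides, ions and cofactors between the matrix and the cytosol. Each carrier protein is built of repeats of a similar domain, and each repeat carries a short signature on its odd-numbered helix. The genes lie in the nucleus, and the proteins are made in the cytosol and imported. In stimulated macrophages the family is best known for the export of citrate, which feeds fatty acid synthesis in the cytosol.

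The 47 genes lay on 19 chromosomes, 4 of them on X. Their longest annotated proteins had 265 to 677 residues, with a median of 318. The signature, searched as a proline, any residue, an acidic residue, 2 of any kind and a basic residue, occurred 3 times in 27 members, 2 times in 12, 1 time in 5 and not at all in Slc25a46, Slc25a51 and Slc25a53. Of the 47 members 57.4% held at least 3 matches, and of 10910 protein-coding genes with proteins of the same range of lengths 0.871% did. The members are counted among those genes. Because the signature is a known trait of the family, these shares describe the members and test nothing. The coding bases at the first signature are shown for the adenine nucleotide carriers Slc25a5 and Slc25a4 and for the iron carriers Slc25a37 and Slc25a28, the pairs whose levels are compared first. They are read on the coding strand of GENCODE M21 transcripts (mm10), and capitals mark the 18 bases of the signature.
Slc25a5: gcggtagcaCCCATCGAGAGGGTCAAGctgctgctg
Slc25a4: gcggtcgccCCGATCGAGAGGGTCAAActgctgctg
Slc25a37: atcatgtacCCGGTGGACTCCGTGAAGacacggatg
Slc25a28: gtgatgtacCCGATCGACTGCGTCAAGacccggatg
Slc25a5 and Slc25a4 differed at 4 of these 36 bases, Slc25a37 and Slc25a28 at 7, and Slc25a37 and Slc25a5 at 21. Over the whole protein, 89.6% of aligned residues were identical between Slc25a5 and Slc25a4, and 67.4% between Slc25a37 and Slc25a28.

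Sums over the gene tables came to 21256531 expected counts (replicate 1) and 15643649 (replicate 2). Expected counts are estimated numbers of reads or fragments, and TPM is a share of the library corrected for transcript length. The carriers held 37820 counts in replicate 1 and 27122 in replicate 2, which is 0.179% and 0.174% of the counts on annotated genes. TPM ran lower in replicate 2 for detected protein-coding genes in general, by a median log2 ratio of -0.42, and for 39 of the 47 carriers. An SD of TPM over the 2 libraries includes that shift. The carriers' TPM summed to 573.38 in replicate 1 and 419.43 in replicate 2. This was 0.226% and 0.223% of the TPM of protein-coding genes of the nuclear genome, so most TPM of each library lay outside those genes. A TPM of 1 is thus a higher cut here than after rescaling over those genes alone. All 8 macrophage markers examined, among them Lyz2, Csf1r and Adgre1, had a TPM of 10 or more in each library, with sums of 3480.97 and 3078.54. None of 9 erythroid markers reached a TPM of 1, and Hba-a1, Hba-a2 and Hbb-bt were at 0. Hepatocyte, muscle and neuron markers were at 0 throughout, 0 of 4 germ cell markers and 2 of 8 neutrophil markers reached a TPM of 1 in both libraries, and the neutrophil list summed to 7.09 in replicate 1 and 6.2 in replicate 2. Of 4 brown fat markers only Fabp4, also known from macrophages, reached a TPM of 1, at TPM values of 69.0 in replicate 1 and 37.6 in replicate 2. Cidea and Adipoq were at 0, and Ucp1 had 3 counts in replicate 1 alone.

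Of the 47 carriers 29 reached a TPM of 1 or more in each library, and of 21938 protein-coding genes of the nuclear genome 39.3% did. A further 4 carriers did so in replicate 1 alone (Slc25a16, Slc25a29, Slc25a32 and Slc25a33). There were 9 carriers with counts but a TPM below 1 in both libraries. In the gene table Slc25a21, Slc25a31, Slc25a41, Slc25a48 and Slc25a54 had no counts in either library. This allows levels of up to 0.142 CPM, counts scaled by library size alone, in replicate 1 and 0.192 in replicate 2. The second transcript table gave Slc25a21 TPM values of 0.081 in replicate 1 and 0.236 in replicate 2, and Slc25a48 0.117 and 0.063. There Slc25a31 had 0.0067 in replicate 1 alone, Slc25a41 had 0.015 in replicate 2 alone, and Slc25a54 was at 0. The median carrier had a log2(TPM + 1) of 2.04 ± 0.32 (SD, n = 2) and the median protein-coding gene 0.32 ± 0.05, a difference of 1.72 ± 0.27 taken within libraries. Among genes with a TPM of 1 or more in each library the order was the other way round, with 2.64 ± 0.37 for the 29 carriers and 3.04 ± 0.24 for 8616 protein-coding genes, a difference of -0.40 ± 0.13.

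**Figure D1:**
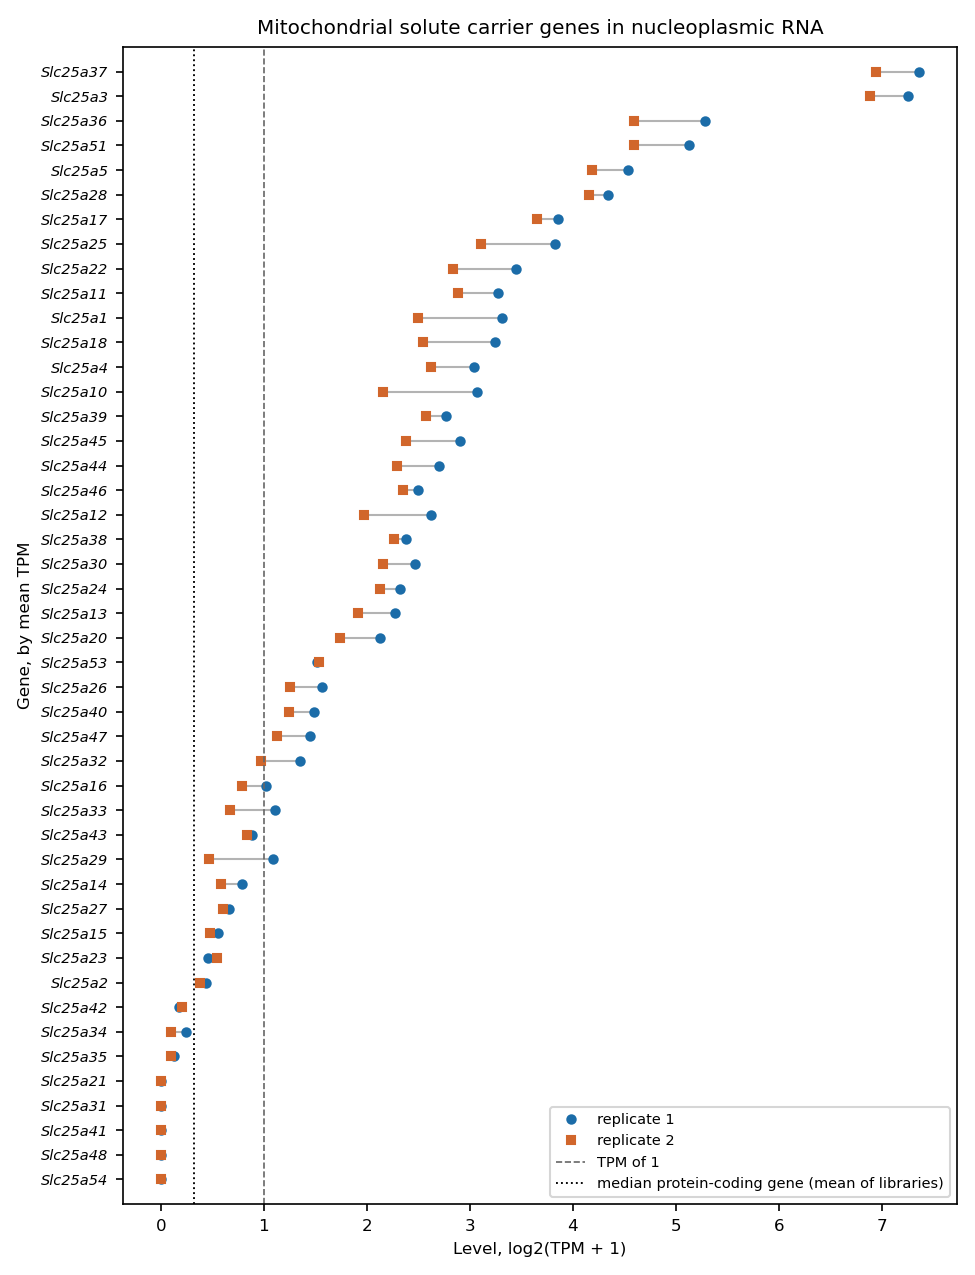
Level of 46 of the 47 carrier genes in both libraries, as log2(TPM + 1), ordered by mean TPM. Circles are replicate 1 and squares replicate 2, the dashed line is a TPM of 1 and the dotted line the median protein-coding gene at 0.32. Slc25a37 and Slc25a3 stand apart at the top, and 5 genes are at 0 in both libraries.

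The levels were concentrated in a few members. The 5 highest carriers, Slc25a37, Slc25a3, Slc25a36, Slc25a51 and Slc25a5, held 71.8 ± 0.567% of the family's summed TPM (SD, n = 2). Slc25a37 alone held 28.5% in replicate 1 and 29.1% in replicate 2, and Slc25a3 held 26.4% and 27.9%. Counting transcripts annotated as protein-coding alone, the 5 highest held 64.8%, and in the second transcript table Slc25a17 was among the 5 highest by mean TPM in place of Slc25a5. Of the 41 pairs of neighbours in the order of TPM among the 42 carriers with counts, 14 differed by more than the spread of the difference between libraries. Slc25a37 was above Slc25a3 by 0.085 ± 0.039 in the gene table but below it with protein-coding transcripts alone, by a difference of -0.17 ± 0.029. In the gene table Slc25a3 was above Slc25a36 by 2.13 ± 0.23 on the log2(TPM + 1) scale. Slc25a36 and Slc25a51, which differed by 0.075 ± 0.12, and Slc25a5 and Slc25a28, which differed by 0.11 ± 0.12, were within their spread.

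Iron enters the mitochondrial matrix through Slc25a37 (mitoferrin 1), which supplies haem synthesis in developing red cells, and through its relative Slc25a28 (mitoferrin 2) in other cells. Slc25a37 was the highest carrier of the family in the gene table, with TPM values of 164 in replicate 1 and 122 in replicate 2, from 18766 and 14194 expected counts. It ranked 255 and 241 among protein-coding genes. Slc25a28 had TPM values of 19.3 in replicate 1 and 16.9 in replicate 2. Slc25a37 was above Slc25a28 in both libraries, by 2.90 ± 0.17 on the log2(TPM + 1) scale (SD, n = 2). The 9 erythroid markers together summed to TPM values of 1.49 in replicate 1 and 0.58 in replicate 2, and Epor, the erythropoietin receptor, held 0.85 and 0.42 of these.

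The genes that use mitochondrial iron were at moderate levels. Of 8 such genes 6 reached a TPM of 1 in both libraries. The highest was Alas1, the first enzyme of haem synthesis outside the red cell lineage, at 27.8 in replicate 1 and 17.6 in replicate 2. Fech, which inserts the iron in the last step of haem synthesis, had 3.34 and 3, and Iscu, the scaffold of iron-sulphur clusters, 7.46 and 5.54. Abcb10, a transporter that binds mitoferrin 1, stayed just below 1 at 0.91 and 0.72.

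Slc25a3 carries phosphate into the matrix, where it is joined to ADP. It had TPM values of 151 in replicate 1 and 117 in replicate 2, close behind Slc25a37. With protein-coding transcripts alone the order turned, at 67.7 in replicate 1 and 53.7 in replicate 2 for Slc25a3, and 61.0 and 47.0 for Slc25a37. The ADP and ATP carriers were lower. Slc25a5 (ANT2), the form of proliferating and many other cells, had 22.2 in replicate 1 and 17.2 in replicate 2. Slc25a4 (ANT1), the form of heart and muscle, had 7.23 and 5.14. Slc25a5 was thus above Slc25a4 by 1.53 ± 0.05 (SD, n = 2). Slc25a31 (ANT4), known from the testis, was at 0. Reads of Slc25a5 may be hard to assign, because 33.8% of its 50-base stretches also occur in transcripts of 9 other genes. The quantifier's own spread of its count was 0.13 in replicate 1 and 0 in replicate 2. Whether reads were assigned to the wrong gene was not tested.

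A second route of adenine nucleotides is the exchange of ATP-Mg for phosphate, which calcium regulates. Slc25a25 was the highest of these 4 carriers, with TPM values of 13.2 in replicate 1 and 7.62 in replicate 2. Slc25a24 followed at 3.99 and 3.36, and Slc25a23 was at 0.37 and 0.46. Slc25a25 exceeded Slc25a24 by 1.25 ± 0.37, and Slc25a24 exceeded Slc25a23 by 1.72 ± 0.20. Slc25a41, the relative that lacks the calcium-binding part, was at 0.

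Pyrimidine nucleotides, which the mitochondrial genome needs for its own transcription and replication, pass through Slc25a36 and Slc25a33. Slc25a36 had TPM values of 38.1 in replicate 1 and 23.1 in replicate 2, and Slc25a33 had 1.16 and 0.59. At 4.05 ± 0.18 this was the widest gap of the 11 pairs in the gene table, between proteins with 62.3% identity. With protein-coding transcripts alone it was 3.44 ± 0.09.

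The carriers around the citrate cycle were between these extremes and close to one another. Slc25a1, the citrate carrier, had TPM values of 8.90 in replicate 1 and 4.64 in replicate 2. Slc25a10, for dicarboxylates such as malate and succinate, had 7.38 and 3.45, and Slc25a11, which exchanges oxoglutarate for malate, had 8.64 and 6.39. Slc25a11 exceeded Slc25a10 by 0.47 ± 0.37 in the gene table, while the second transcript table put it lower, at -0.057 ± 0.025. Slc25a21, the carrier of longer oxodicarboxylates, was at 0. All 9 enzymes listed for the malate-aspartate shuttle and citrate use reached a TPM of 1 in both libraries, led by citrate synthase, Cs, at 22.5 in replicate 1 and 19.0 in replicate 2. Acly, which splits the exported citrate, had 11.6 and 8.60.

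Aspartate leaves the matrix through Slc25a12 (aralar) and Slc25a13 (citrin), the calcium-regulated carriers of the malate-aspartate shuttle. Slc25a12 had TPM values of 5.14 in replicate 1 and 2.91 in replicate 2, and Slc25a13 had 3.82 and 2.76. Slc25a13 minus Slc25a12 was -0.20 ± 0.21, the only one of the 11 pairs within its spread. With transcripts annotated as protein-coding alone, Slc25a13 was above Slc25a12 by 1.19 ± 0.39. Of the glutamate carriers, Slc25a22 had 9.91 in replicate 1 and 6.16 in replicate 2, and Slc25a18 had 8.47 and 4.83. Slc25a22 was above Slc25a18 by 0.25 ± 0.07 in the gene table, and below it at -0.90 ± 0.27 in the second transcript table and at -0.75 ± 0.37 with protein-coding transcripts alone. As CPM it was above by 0.39 ± 0.16. The order of these glutamate carriers therefore depends on the measure. Slc25a18 shares 32 exon bases with the opposite gene Atp6v1e1, which had TPM values of 83.7 in replicate 1 and 52.5 in replicate 2.

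Amino acid carriers were low or moderate. Slc25a44, for branched-chain amino acids, had TPM values of 5.49 in replicate 1 and 3.89 in replicate 2. Slc25a38, for the glycine of haem synthesis, had 4.22 and 3.81. The ornithine carrier Slc25a15 had 0.47 in replicate 1 and 0.39 in replicate 2, and its relative Slc25a2 had 0.35 and 0.30, a difference of 0.11 ± 0.02. Slc25a29, for basic amino acids, had 1.13 and 0.38, from 25 and 11 counts. None of these last 3 reached a TPM of 1 in both libraries. Slc25a20, which brings acylcarnitines into the matrix, had 3.37 in replicate 1 and 2.34 in replicate 2. Among 5 genes of fatty acid entry, Cpt1a, the enzyme that makes acylcarnitines, had 7.91 and 6.46, Crat had 3.89 and 3.10, and the other 3 were below 1.

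Of the carriers of cofactors, Slc25a51, for NAD+, was the highest in the gene table, with TPM values of 34.0 in replicate 1 and 23.2 in replicate 2. Slc25a17, a carrier of the peroxisomal membrane, had 13.5 and 11.6. In the second transcript table Slc25a17 had 16.3 and 20.2 and Slc25a51 17.4 and 15.7, so their order there differed between the libraries. Slc25a26, for S-adenosylmethionine, had 1.96 and 1.38, and Slc25a32, linked to folate and flavins, had 1.55 and 0.96. Slc25a42, for coenzyme A, was near the floor at 0.13 and 0.15, from 10 counts in each library. It was below Slc25a16, at 1.03 and 0.73, by a difference of -0.72 ± 0.18, and above it in the second transcript table, by 0.38 ± 0.023. The glutathione carrier Slc25a39 had 5.82 in replicate 1 and 4.97 in replicate 2, and its relative Slc25a40 had 1.81 and 1.37, a difference of 1.31 ± 0.04.

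The remaining members include carriers close to the uncoupling proteins and a few of little known function. Slc25a30 had TPM values of 4.53 in replicate 1 and 3.45 in replicate 2, Slc25a14 had 0.73 and 0.50, and Slc25a27 had 0.58 and 0.52. Slc25a46, a member of the outer membrane that acts in mitochondrial shape, had 4.64 and 4.11. Slc25a45 had 6.47 and 4.19, Slc25a53 had 1.85 and 1.90, and Slc25a47, known from liver, had 1.73 and 1.19 from 38 and 21 counts. Slc25a43, Slc25a34 and Slc25a35 were below 1 in both libraries. Slc25a35 had 6.18 and 4 counts, and 31.3% of its exon bases overlap Rangrf on the opposite strand.

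Carriers of the same fold with other names, namely Ucp1, Ucp2, Ucp3, Mtch1 and Mtch2, were also read. The pyruvate carrier, the outer membrane channels and the genes of carrier import were listed apart from these. Ucp2, the uncoupling protein of immune cells, had TPM values of 39.7 in replicate 1 and 28.6 in replicate 2, above Slc25a36 in both libraries. Its expected counts went the other way, at 1301 in replicate 1 and 1614 in replicate 2. After normalisation the log2 ratio of replicate 2 over replicate 1 was 0.80, and the cause was not tested. Ucp1 and Ucp3 had 3 and 2 counts in replicate 1 and none in replicate 2. Mtch2, an insertase of the outer membrane, had 22.1 and 18.1, and Mtch1 had 15.8 and 10.5. Mpc1, a subunit of the pyruvate carrier, had 39.3 and 34.5, and its partner Mpc2 had 2.55 and 1.32. Of the outer membrane channels, Vdac2 had 39.0 and 28.8, Vdac1 had 17.6 and 13.6, and Vdac3 had 9.96 and 8.18. Of 13 genes that import carrier proteins 12 reached a TPM of 1 in both libraries, and none reached 10 in both.

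**Figure D2:**
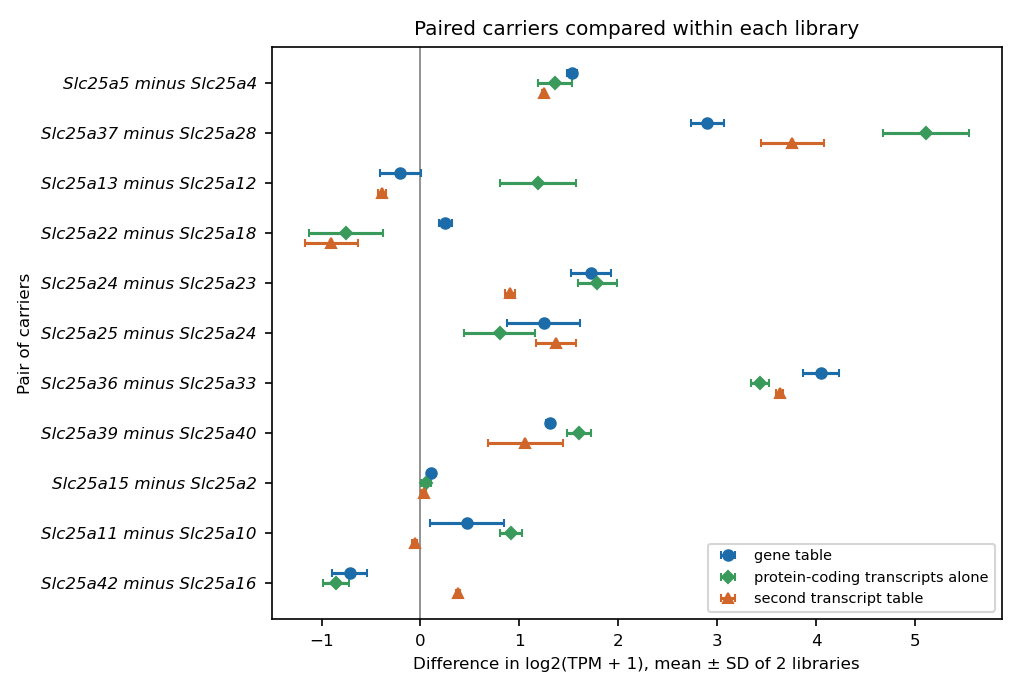
Difference in log2(TPM + 1) between the carriers of each of 11 pairs, taken within each library, as mean ± SD of 2 libraries, for the gene table (circles), protein-coding transcripts alone (diamonds) and the second transcript table (triangles). Slc25a36 minus Slc25a33 is the widest in the gene table at 4.05, and the pairs of Slc25a13, Slc25a22, Slc25a11 and Slc25a42 lie on both sides of 0.

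Part of the transcript TPM of the highest members lay on transcripts that are not annotated as protein-coding. The 256 annotated transcripts of the family include 130 of this kind, of 3 types: retained introns, processed transcripts without an open reading frame, and transcripts subject to nonsense-mediated decay. The share of a gene's transcript TPM on them, the noncoding share, had a median of 33.7 ± 3.47% over the 29 carriers detected in both libraries (SD, n = 2) and 26.0 ± 0.822% over the 8616 protein-coding genes. It exceeded 50% in both libraries in 6 of the 29 carriers, 20.7%, and in 18.9% of the protein-coding genes, a share near that of genes in general in this table. In the second transcript table it did so in 14 of the 29 carriers, 48.3%, and in 32.3% of the protein-coding genes. As a share of expected counts, an alternative added after the data were seen, the medians were 16.2 ± 0.709% and 11.2 ± 0.293%. Among genes with an annotated noncoding transcript, another such alternative, they were 35.1 ± 4.33% over 26 carriers and 32.7 ± 0.371% over 7263 genes. Taken on expected counts, the noncoding share of Slc25a37 was 76.1% in replicate 1 and 70.0% in replicate 2. That of Slc25a3 was 65.3% and 62.9%. It was lower in Slc25a36, at 8.91% and 6.16%, in Slc25a51, at 13.8% and 16.7%, and in Slc25a5, at 12.6% and 18.8%.

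The highest noncoding shares were those of Slc25a28, at 97.7% in replicate 1 and 95.7% in replicate 2, Slc25a12, at 90.4% and 81.7%, and Slc25a53, at 90.8% and 80.0%. The share was 0 in both libraries in 5 detected carriers, Slc25a18, Slc25a24, Slc25a44, Slc25a45 and Slc25a46, of which Slc25a18, Slc25a44 and Slc25a45 have no noncoding transcript annotated. Of the 29 carriers Slc25a1 differed most between the libraries, with 36.2% in replicate 1 and 1.51% in replicate 2.

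**Figure D3:**
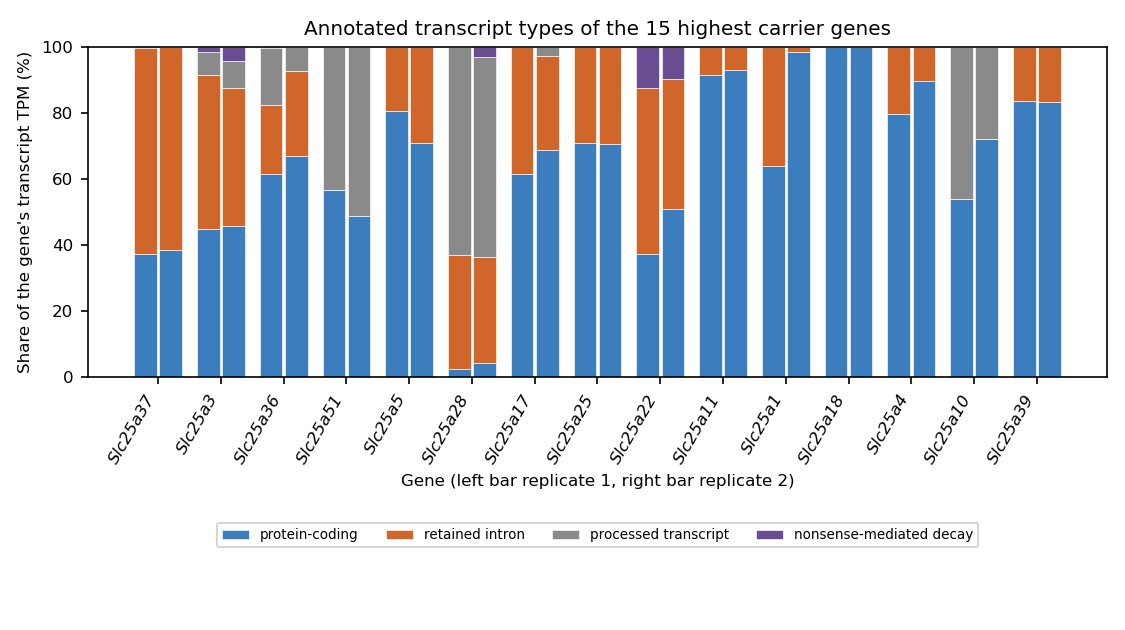
Share of each gene's transcript TPM by annotated transcript type, for the 15 carriers with the highest mean TPM. The left bar of each pair is replicate 1 and the right bar replicate 2. Slc25a28 is almost all noncoding in both libraries, at 97.7% and 95.7%, and Slc25a18 has a single, protein-coding transcript.

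For the iron carriers and the phosphate carrier, the transcripts behind these shares include ones that keep an intron. Slc25a37 lies at chr14:69241848-69285112 (mm10, minus strand). Its transcript Slc25a37-203, which keeps intron 2, had TPM values of 102 in replicate 1 and 74.9 in replicate 2, and the full-length coding transcript Slc25a37-201 had 45.9 and 46.3. Slc25a28 lies at chr19:43663801-43674881 (minus strand). Its transcript Slc25a28-202, which keeps introns 2 and 3, had 6.68 and 5.42, the processed transcript Slc25a28-203 had 12.2 and 10.2, and the coding transcript Slc25a28-201 had 0.45 and 0.72. Slc25a3 lies at chr10:91116574-91124059 (minus strand). Its transcript Slc25a3-208, which keeps intron 2, had 38.7 and 27.6, and the coding transcript Slc25a3-201 had 52.1 and 48.3. The order of Slc25a37 over Slc25a28 held with coding transcripts alone, at 5.11 ± 0.44.

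The sequences at these introns show where the kept and spliced forms part. They need not be the only difference between the transcripts that were quantified. Slc25a3-208 has 4039 bases and Slc25a3-201 has 1612, a gap wider than the 1514 bases of intron 2. In each pair of lines, lower case is the last 30 bases of the exon before the intron, and capitals are the next 30 bases, which are the start of the intron in the retained form and the start of the next exon in the spliced form. They are given on the minus strand of mm10, from GENCODE M21 transcripts, and both flanking exons are coding.
Slc25a37-203, intron 2 kept: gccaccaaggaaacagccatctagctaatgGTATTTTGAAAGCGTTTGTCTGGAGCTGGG
Slc25a37-201, intron 2 spliced: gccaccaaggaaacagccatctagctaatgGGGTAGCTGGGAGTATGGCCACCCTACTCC
Slc25a28-202, intron 2 kept: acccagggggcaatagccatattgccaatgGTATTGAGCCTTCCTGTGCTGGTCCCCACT
Slc25a28-201, intron 2 spliced: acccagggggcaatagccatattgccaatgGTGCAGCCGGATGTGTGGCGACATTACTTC
Slc25a3-208, intron 2 kept: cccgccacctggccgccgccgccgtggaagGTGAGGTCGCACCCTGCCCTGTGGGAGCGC
Slc25a3-201, intron 2 spliced: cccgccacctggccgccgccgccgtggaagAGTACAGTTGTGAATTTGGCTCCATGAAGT
The kept intron of Slc25a37 is at chr14:69247638-69249393 and has 1756 bases, that of Slc25a28 at chr19:43665829-43666914 has 1086, and that of Slc25a3 at chr10:91122044-91123557 has 1514. In both iron carriers the intron lies between exons of 229 and 57 bases.

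The second transcript table, of another layout, divided the same genes differently. It gave Slc25a37 TPM values of 116 in replicate 1 and 102 in replicate 2. Of this, 60.9 and 47.7 were on Slc25a37-202, a fragment of 342 bases that is annotated as protein-coding. This fragment had 15.1 and 0.70 in the first table, and the levels of Slc25a37 with protein-coding transcripts alone include it. In the second transcript table the full-length coding transcript Slc25a37-201 had 3.999 in replicate 1 and 9.21 in replicate 2. Slc25a37-203, which keeps intron 2, had 41.8 and 45.1 in that table. The median noncoding share of the 29 carriers was 47.4 ± 4.56% there, against 38.6 ± 1.91% of the protein-coding genes. Levels ran lower in this table for genes in general: the median difference in log2(TPM + 1), second minus first, was -0.88 in replicate 1 and -0.41 in replicate 2 over the 29 detected carriers, and -0.85 and -0.41 over the 8616 protein-coding genes. Of the 29 carriers 21 were lower in both libraries, 72.4%, and 81.2% of the protein-coding genes were. On the TPM + 1 scale Slc25a3, Slc25a5 and Slc25a28 were lower by more than 2-fold in both libraries, and 1.59% of the protein-coding genes were. Slc25a3 had 53.0 in replicate 1 and 57.9 in replicate 2, Slc25a5 had 7.69 and 7.97, and Slc25a28 had 6.40 and 7.89.

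Other annotated genes share the ground of some members, and the strand setting of the counting is not given in the sources used here. Within intron 1 of Slc25a37, on the same strand, lies Gm20236, a locus at chr14:69277601-69282140, with TPM values of 119 in replicate 1 and 91.3 in replicate 2. Reads of Gm20236 and of unspliced Slc25a37 cannot be told apart. The opposite locus Gm31748, which shares 381 exon bases with Slc25a37, had 32.2 and 13.7, and the antisense gene Gm27222 had 47.9 and 34.1. Slc25a3 overlaps the small nucleolar RNA gene Gm24119, at chr10:91118291-91118536 and outside the kept intron, which had 101 and 30.9. In all, 23 of the 47 carriers overlap another annotated gene and 14 share exon bases with one. The same shares over all protein-coding genes were not counted, so whether these are unusual is not known.

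The spread between the replicates was last taken on counts, after normalisation. Of the 30 carriers with a mean count of at least 50, 0 passed a 2-fold ratio between replicate 2 and replicate 1, and 1.18% of 10083 genes did. The median log2 ratio of the carriers was -0.084 and that of all genes was 0.0012. The highest ratio of a carrier was 0.27, for Slc25a40, and 11 of the 30 carriers had a ratio above 0. Negative ratios were larger in size, with -0.44 for Slc25a10 and -0.42 for Slc25a25 among them. Slc25a37 had a ratio of 0.091 and Slc25a3 one of 0.017. The count of 0 was also found with DESeq2's size factors, where 119 of 10083 genes passed. It was found in the second transcript table too, for 34 carriers, where 569 of 16382 genes passed.

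**Figure D4:**
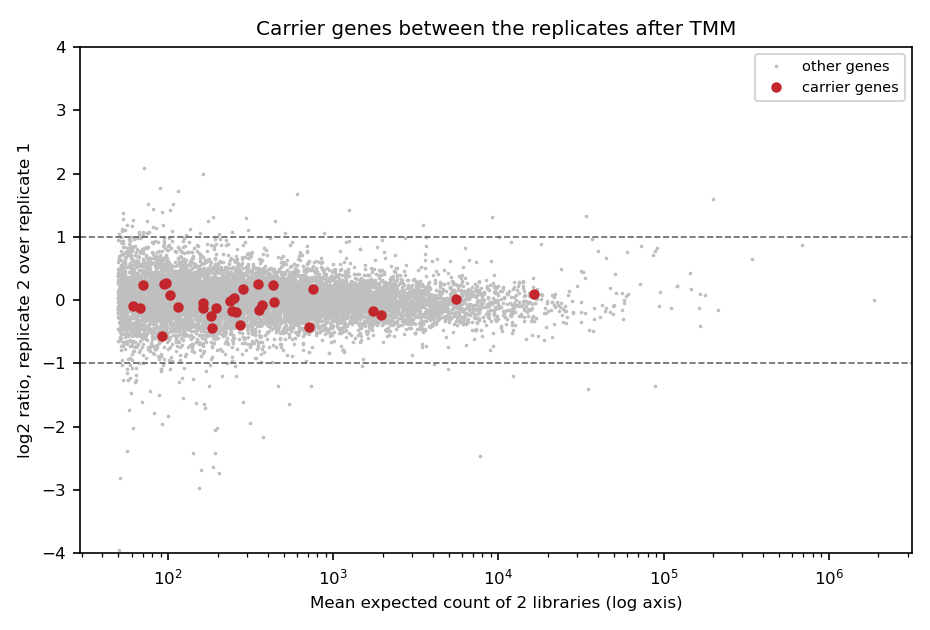
Log2 ratio of replicate 2 over replicate 1 after TMM normalisation against the mean expected count (log axis) for genes with a mean count of at least 50, with carrier genes in red and other genes in grey; dashed lines mark 2-fold. All 30 carriers lie between the lines, and 4 genes lie outside the plotted range.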

How the data were processed

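The members, lists and pairs were chosen with earlier results of these data known. Nucleoplasmic total RNA libraries of 2 replicates were read from the authors' deposited gene and transcript tables, made on mm10 with GENCODE M21, per the file headers. Which aligner and quantifiers were run, in which versions and with which strand setting, is not given in the sources used here. Deposited expected counts are estimates that were not normalised. The deposited TPM values were divided by effective length by the authors and scaled to the same sum in every library. The posterior SD of the count, another value the authors deposited, is the quantifier's own spread, and it was 0 in both libraries for 20 of the 29 carriers with a TPM of at least 1. A second transcript table by the authors, with estimated counts and TPM, was summed per gene.

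Rows that name no mouse gene held 0.712% of the expected counts in replicate 1 and 0.277% in replicate 2 and were left out of library sizes. Levels are TPM, or log2(TPM + 1), and all differences between genes were taken within a library. A difference was called beyond its spread where it had the same sign in both libraries and its mean exceeded its SD. With 1 group of 2 libraries there is no test between groups and no p-value. The labels call the libraries biological replicates with 1 donor label and do not say whether they came from separate cultures, so the SD may be partly technical. The replicate ratio used expected counts, rounded to integers, with 0.5 added and TMM scaling (edgeR 4.0.16, R 4.3.3). DESeq2 1.42.0 gave the alternative size factors. This step was tested on simulated data. Sequences were read from GENCODE M21 transcripts, and proteins were translated and aligned with Biopython 1.88. Shared sequence was counted as distinct stretches of 50 bases, on either strand, that occur in transcripts of other genes. Limits of zero counts use 3 counts and cover counting error only, since reads that carry no molecular identifier cannot be counted as molecules. Genes were named if they had a TPM of at least 10 in either library, belonged to a role group or pair, had fewer than 3 counts in both libraries, had the 3 highest or lowest noncoding shares (5 tied at 0), or differed by more than 2-fold between tables; genes of the related and marker lists were added for context. A few genes that the rule or lists take are not reported here by name. Other steps used Python 3.11.15, numpy 2.4.6, pandas 2.3.3 and matplotlib 3.10.9.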

Additional observations from a re-analysis of the deposited data

How the results depend on the processing

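The median log2(TPM + 1) of the carriers was 2.04. It was 1.68 with a pseudocount of 0.1, 2.64 among genes with a TPM of at least 1, 1.53 in the second transcript table, 1.11 with protein-coding transcripts alone, 3.93 with TPM rescaled over protein-coding genes and 2.76 as CPM. It ranged from 1.82 to 2.27 with 1 library left out. The difference of 1.72 from the median protein-coding gene was 3.20, -0.40, 0.96, 0.89, 2.83 and 2.11 under the same alternatives in the same order, and 1.53 to 1.91 with 1 library left out. The value of -0.40 comes from keeping detected genes alone, which removes undetected genes from both sets. The share of the 5 highest carriers was 71.8%, with 64.8% for protein-coding transcripts alone, 81.7% for CPM and 71.4 to 72.2% with 1 library left out. The median noncoding share of 33.7% became 47.4% in the second table and, in an alternative added after the data were seen, 16.2% as a share of counts; it was 31.3 to 36.2% with 1 library left out. The pair differences that turned were Slc25a22 minus Slc25a18 (-0.90 in the second table, -0.75 with protein-coding transcripts alone), Slc25a11 minus Slc25a10 (-0.057 in the second table), Slc25a42 minus Slc25a16 (0.38 in the second table) and Slc25a13 minus Slc25a12, within its spread in the gene table (1.19 with protein-coding transcripts alone, 0.13 as CPM); the cause was not tested. The number of carriers detected was 29, and 23 to 39 under the other settings. Of the 11 pairs 10 differed beyond their spread in the gene table. In the second table, with protein-coding transcripts alone, as CPM and with a pseudocount of 0.1, 11 did. Leaving out pairs beyond their spread in the gene table that changed sign, the difference moved by more than its SD as follows. It did so in 6 pairs with a pseudocount of 0.1 and 6 in the second table. With protein-coding transcripts alone it did so in 8 and as CPM in 9, both with Slc25a13 minus Slc25a12 among them. The pairs left out, 3 in the second table and 1 with protein-coding transcripts alone, also moved by more than their SD. No carrier passed 2-fold between the replicates under any count minimum or scaling tried. With a minimum mean count of 10 this was 0 of 39 carriers, and 618 of 13996 genes passed. With no minimum it was 0 of 42 carriers, and 5733 of 21999 genes passed. No paired analysis was possible because the samples form 1 group.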
